A study of Mus musculus with 14 samples.

Results

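The antibacterial products that the colon epithelium releases or displays on its surface were followed through 8 genes: *Reg3b*, *Reg3g*, *Reg4*, *Lypd8*, *Slpi*, *Wfdc2*, *Lyz1* and *Lyz2*. They were picked by name, and all 8 were present among the 55889 genes counted without dextran sulfate sodium (DSS) and the 54721 genes counted after DSS. RNA sequencing of colon covered 14 C57BL/6N mice, aged 8 to 12 weeks. Without DSS, 4 were wild type (WT) and 4 lacked *MiR-29ab1* (*MiR-29ab1*-/-, called KO here). A further 3 WT and 3 KO mice had received 3.5% DSS, a detergent-like polymer that injures the colon epithelium, in the drinking water for 3 days. The knockout is a germline one, so every cell of a KO mouse carries it and not the epithelium alone. The question asked of these genes was whether their RNA differed between the genotypes at rest and under injury.

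The libraries held 17177177 to 18185020 reads counted on genes in WT mice and 14231157 to 16100607 in KO mice without DSS, so that every KO library was the smaller, and 20076719 to 23153149 reads in the 6 mice after DSS. At this depth 3 reads, the floor used here, stand for 0.130 to 0.211 CPM, the unit used here for the reads of a gene scaled to the depth of its library. This limit covers counting error only. The labels name small intestinal crypts, whereas the methods of the study name colon. The colon markers *Car1* (3390 CPM in WT mice without DSS) and *Hoxb13* (159 CPM) were abundant, and the smooth muscle gene *Myh11* had at most 3 reads in any mouse. A list of 7 epithelial cell markers summed to 10189 to 13581 CPM in WT mice without DSS. How far the samples were enriched for epithelium was not tested. Of 13 small intestine markers, which summed to 833 to 876 CPM in WT mice without DSS, *Apoa1*, *Apoa4*, *Apoc3*, *Fabp1*, *Lct* and *Gata4* had group means under 1 CPM in all 4 groups, while *Mgam* (430 CPM in WT mice without DSS), *Fabp2* (216 CPM) and *Slc5a1* (180 CPM) were as abundant as *Hoxb13* or more. The reads of *Lncpint*, which lies beside the deleted locus, were 7 to 23 in WT and 1386 to 2889 in KO mice without DSS, and 6 to 14 against 706 to 1144 after DSS, so that all 14 mice stood on the side of their label. The hairpins themselves could not be read in either genotype, with 0 reads of *Mir29a* in all mice. After DSS, 14.8% and 20.2% of the reads of KO mice 1 and 2 fell on mitochondrial genes, against 7.43% in KO mouse 3 and 6.15% to 8.81% in WT mice. Mice after DSS are numbered as the columns of the table number them.

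The 8 proteins guard the epithelial surface in different ways. *Reg3b* and *Reg3g* encode secreted C-type lectins that bind and kill bacteria close to the epithelium, and their transcription is known to follow interleukin-22 signalling through STAT3 during infection and injury. *Reg4* encodes a related lectin that marks the deep crypt secretory cells of the colon, which sit between the stem cells. *Lypd8* encodes a highly glycosylated, membrane-anchored protein of surface colonocytes that holds flagellated bacteria away from the mucosa. *Slpi* and *Wfdc2* encode small protease inhibitors with whey acidic protein domains and antibacterial activity. *Lyz1* and *Lyz2* encode lysozymes, which cut bacterial cell walls, and are typical of Paneth cells of the small intestine and of macrophages, respectively.

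The deletion removes miR-29a and miR-29b-1, and their mature 3p arms are shown because the letters of the seed decide which transcripts a miRNA can pair with. In the RefSeq sequences on GRCm38.p6, mmu-miR-29a-3p lies at chr6:31062673-31062694 and mmu-miR-29b-3p of *Mir29b-1* at chr6:31063025-31063047, both on the reverse strand, and capitals mark bases 2 to 8, the seed, which is the same in both.
mmu-miR-29a-3p: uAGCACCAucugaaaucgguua
mmu-miR-29b-3p: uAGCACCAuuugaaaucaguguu
A transcript that pairs with these bases holds TGGTGCT in its 3′ untranslated region. None of the protein-coding transcripts of the 8 genes in GENCODE vM21 holds it there, and none holds the shorter GGTGCT that pairs with bases 2 to 7. The longest such region of each gene runs from 177 bases in *Wfdc2* to 790 bases in *Lyz2*. Of the 21677 genes searched in the same way, 13.4% hold TGGTGCT and 28.5% hold GGTGCT. The search covers only these letters in the annotated 3′ untranslated regions. Other hairpins that may give the same mature arm or seed in KO mice were not examined.

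None of the 8 genes passed an adjusted p under 0.05 between genotypes in either experiment by edgeR's quasi-likelihood test, nor by DESeq2, and the genotypes overlapped for each of them. The widest difference was in *Reg3b* and *Reg3g* after DSS, whose mean levels were 11.4 times and 7.12 times higher in KO than in WT mice, with spreads between mice so wide that the intervals include no difference. *Reg4* was 1.57 times higher in KO mice without DSS and 0.453 times the WT level after DSS. Within each experiment *Lypd8* and *Wfdc2* had close to equal mean levels in both genotypes. Without DSS, 0 of 8 genes were called at an adjusted p under 0.05, against 0.0194% of all 15441 genes tested (0.0194% higher and 0% lower in KO mice). At an unadjusted p under 0.05, 1 of 8 was called, *Reg4*, against 3.67% (2.09% higher and 1.58% lower). After DSS 7 of the 8 genes had enough reads for the test, and 0 of 7 were called at an adjusted p under 0.05, against 0.0134% of 14908 genes. At an unadjusted p under 0.05, 0 of 7 were called, against 7.24% (3.99% higher and 3.25% lower). Genotypes that do not overlap were seen for none of the 8, against 2.03% of genes without DSS (1.11% higher and 0.92% lower) and 11.6% after DSS (5.33% higher and 6.28% lower). Since the RNA of many cells was sequenced together, fewer cells of a type and less RNA per cell cannot be told apart in any of these levels.

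**Figure D1:**
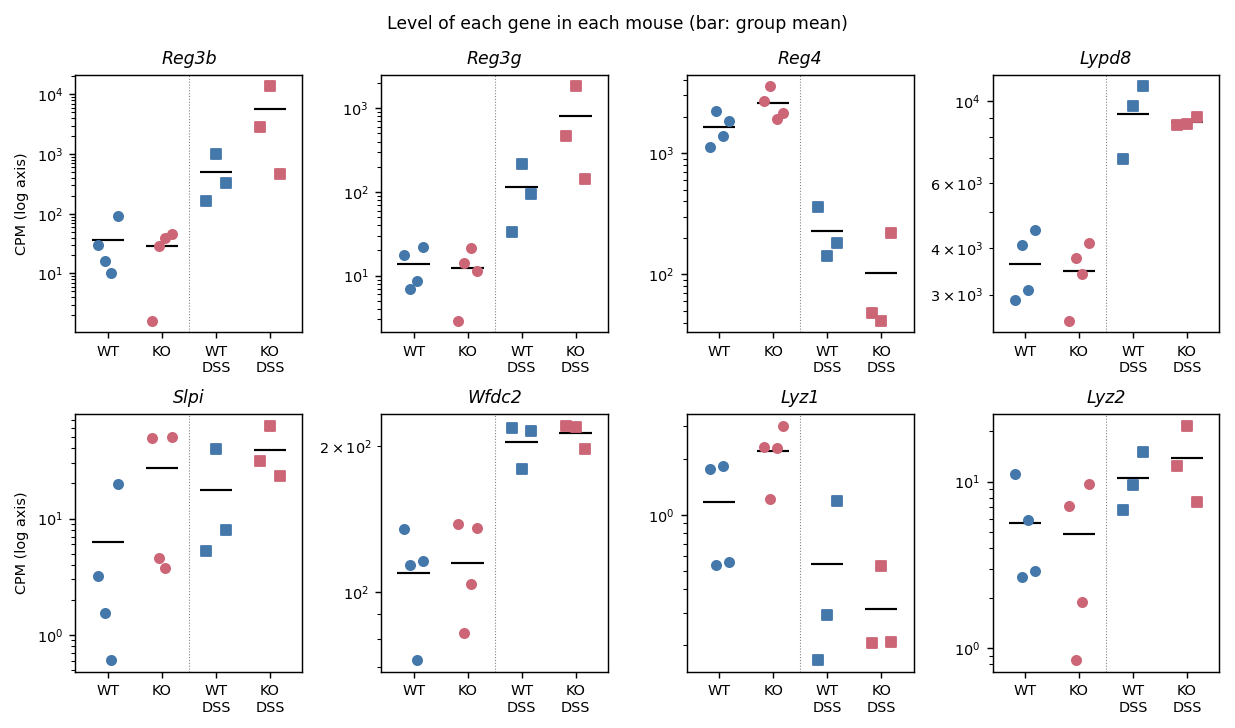
The level of each of the 8 genes in each of the 14 mice, in CPM on a log axis with its own range for each gene, by genotype and experiment, where each point is a mouse and each bar a group mean. The genotypes overlap in every panel, and the points of *Reg3b*, *Reg3g* and *Slpi* spread far wider than those of *Lypd8* and *Wfdc2*.

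*Reg3b* (ENSMUSG00000071356) lies at chr6:78370657-78373466 on the forward strand of GRCm38 and *Reg3g* (ENSMUSG00000030017) at chr6:78466269-78468872 on the reverse strand, 92.8 kb apart and 47.3 Mb from the deleted miRNAs on the same chromosome. Without DSS *Reg3b* stood at 30.6, 16.4, 10.1 and 90.5 CPM in WT mice 1 to 4 and at 1.62, 29.0, 39.4 and 45.4 CPM in KO mice 1 to 4. The lowest and the second highest of the 8 mice were KO mice, and KO mouse 1 had only 24 reads. The log2 fold change of *Reg3b* without DSS was -0.36 (standard error 0.97, 95% interval -2.66 to 1.95, adjusted p = 1.00 by edgeR). After DSS the level was 165, 995 and 326 CPM in WT mice 1 to 3 and 2829, 13678 and 458 CPM in KO mice 1 to 3. KO mice 1 and 2 were above every WT mouse, and KO mouse 3 lay between WT mice 3 and 2. In KO mouse 2 the 258227 reads of *Reg3b* were 1.18% of all reads (95% Wilson interval 1.18% to 1.19%), the fifth most counted gene of that library, and in WT mouse 1 they were 0.0172% (0.0167% to 0.0177%). On the log2 scale KO exceeded WT mice after DSS by 3.51 for *Reg3b* (standard error 1.51, 95% interval -0.45 to 7.48, adjusted p = 0.670, unadjusted p = 0.0711 by edgeR), and the two-sided exact permutation test gave p = 0.2, where 3 mice against 3 cannot give less than 0.1. Without KO mouse 2 the difference was 1.73, and without KO mouse 3 it was 4.06 (unadjusted p = 0.0311, adjusted p = 0.245 by edgeR). DESeq2 gave an unadjusted p of 0.00580 and an adjusted p of 0.306. KO mice 1 and 2 were also the mice with the highest share of mitochondrial reads, and with mitochondrial genes left out the difference was 3.52 (unadjusted p = 0.0709 by edgeR). Leaving these genes out mainly changes the library totals, so it cannot show whether that share and the level of *Reg3b* are linked. Such a link was not tested.

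*Reg3g* followed the same order of mice after DSS. Its level without DSS was 17.5, 7.03, 8.75 and 21.8 CPM in WT mice 1 to 4 and 2.90, 13.98, 21.3 and 11.4 CPM in KO mice 1 to 4, with KO mouse 1 again the lowest. Its log2 fold change without DSS was -0.15 (standard error 0.58, adjusted p = 1.00 by edgeR). After DSS the level of *Reg3g* was 33.0, 217 and 93.3 CPM in WT mice 1 to 3 and 469, 1831 and 143 CPM in KO mice 1 to 3, so that KO mouse 3 lay again between WT mice 3 and 2. For *Reg3g* the log2 fold change after DSS was 2.83 (standard error 1.25, 95% interval -0.44 to 6.11, adjusted p = 0.670, unadjusted p = 0.0762 by edgeR), with p = 0.2 by the exact permutation test. It was 1.42 without KO mouse 2 and 3.33 without KO mouse 3, and DESeq2 gave an unadjusted p of 0.0130 and an adjusted p of 0.418.

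Whether the genotype difference of both genes was the same in both experiments was tested next. In one model over all 14 mice, the log2 fold change after DSS exceeded that without DSS by 3.89 for *Reg3b* (95% interval 0.00 to 7.77, unadjusted p = 0.0499, adjusted p = 0.985 by edgeR) and by 2.99 for *Reg3g* (0.12 to 5.85, unadjusted p = 0.0424, adjusted p = 0.985 by edgeR). Of all 16196 genes tested, 3.96% had an unadjusted p under 0.05 for this difference and 0% an adjusted p under 0.05, and of the 8 genes 3 and 0 did. Without KO mouse 2 after DSS the differences were 2.11 (unadjusted p = 0.225) and 1.59 (unadjusted p = 0.196) by edgeR. With each of the 14 mice left out in turn, the unadjusted p was under 0.05 for *Reg3b* only without WT mouse 3 of the experiment without DSS and without WT mouse 2 or KO mouse 3 after DSS, and it ranged from 0.0232 to 0.225 for *Reg3b* and from 0.0153 to 0.196 for *Reg3g*.

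**Figure D2:**
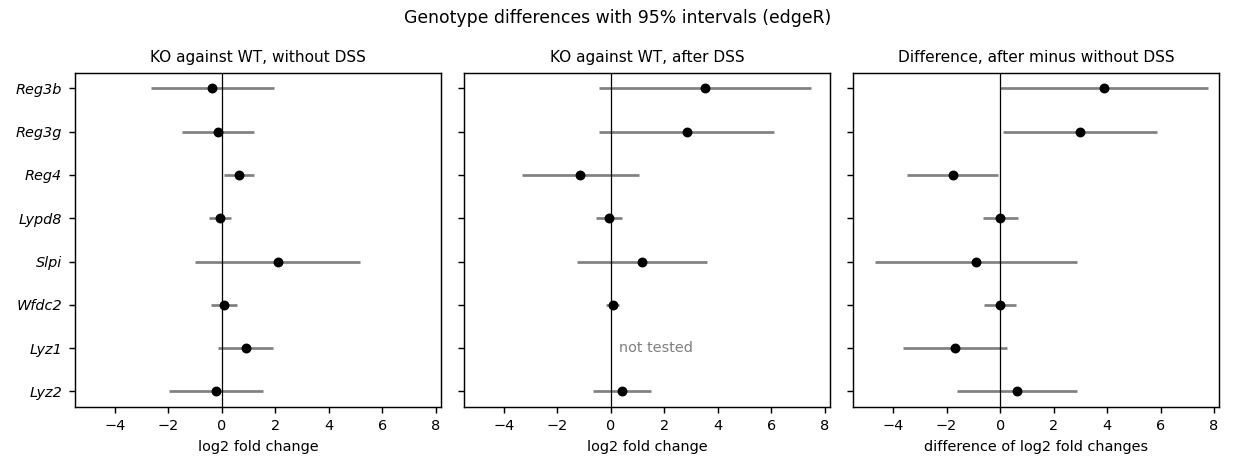
The log2 fold change of KO against WT mice for each gene without DSS (left) and after DSS (middle), and the difference between the 2 experiments (right), with points for edgeR's estimate and lines for its 95% interval. The intervals of *Reg3b* and *Reg3g* after DSS run from below 0 to above 6, while those of *Lypd8* and *Wfdc2* stay close to 0, and *Lyz1* had too few reads for a test after DSS.

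*Reg3b* and *Reg3g* varied together from mouse to mouse. Over the 14 mice, the deviations of log2 CPM from the 4 group means had a Pearson's r of 0.94 (exact permutation within groups, p = 0.000482, adjusted p = 0.00743 over 28 pairs of the 8 genes) and a Spearman's rho of 0.93 (p = 0.000579, adjusted p = 0.0162). Without the 2 mice farthest from the median of *Reg3b*, KO mouse 1 without DSS and KO mouse 3 after DSS, r was 0.90. Within the experiments r was 0.92 over the 8 mice without DSS and 0.98 over the 6 mice after DSS. The coding sequences of both genes, 528 and 525 bases long, are 76.4% identical, and their longest transcripts in GENCODE vM21 share 0 of 734 stretches of 50 bases, so that reads of that length without mismatches can be told apart. Levels per kb depend on the gene lengths used, 1142 bases for *Reg3b* and 2114 bases for *Reg3g*. On that scale *Reg3b* was more abundant than *Reg3g* in all 14 mice. The ratio ran from 1.03 in KO mouse 1 without DSS to 13.8 in KO mouse 2 after DSS. In plain reads KO mouse 1 without DSS had less *Reg3b* than *Reg3g*, 24 against 43. After DSS the ratio per kb was 11.2 and 13.8 in KO mice 1 and 2, 5.92 in KO mouse 3 and 6.48 to 9.26 in WT mice.

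**Figure D3:**
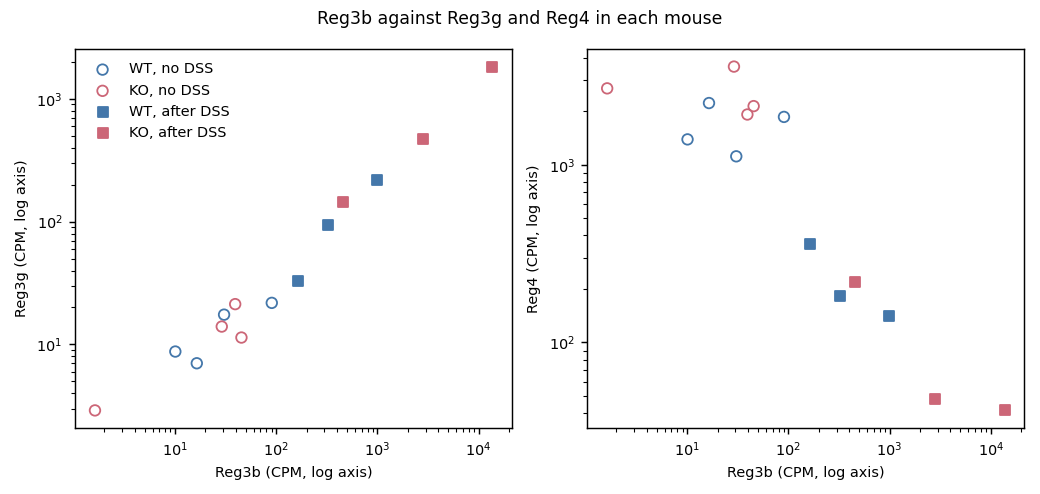
The level of *Reg3g* (left) and *Reg4* (right) against the level of *Reg3b* in each of the 14 mice, all in CPM on log axes, with open circles for mice without DSS and filled squares for mice after DSS. *Reg3g* climbs with *Reg3b* over the whole range, and the 2 KO mice with the most *Reg3b* after DSS have the least *Reg4*.

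The promoters of both genes, from 250 bases before to 50 bases after the start site in RefSeq on GRCm38.p6, are shown because both genes varied together over the mice. *Reg3b* is given from chr6:78370635-78370934 on the forward strand and *Reg3g* from chr6:78468825-78469124 on the reverse strand, and capitals mark the longest run of bases that both hold.
Reg3b: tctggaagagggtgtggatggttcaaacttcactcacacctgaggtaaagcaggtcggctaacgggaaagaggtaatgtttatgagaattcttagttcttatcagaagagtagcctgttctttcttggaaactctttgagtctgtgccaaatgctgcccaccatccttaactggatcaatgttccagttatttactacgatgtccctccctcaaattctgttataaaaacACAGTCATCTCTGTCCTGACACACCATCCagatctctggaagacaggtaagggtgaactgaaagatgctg
Reg3g: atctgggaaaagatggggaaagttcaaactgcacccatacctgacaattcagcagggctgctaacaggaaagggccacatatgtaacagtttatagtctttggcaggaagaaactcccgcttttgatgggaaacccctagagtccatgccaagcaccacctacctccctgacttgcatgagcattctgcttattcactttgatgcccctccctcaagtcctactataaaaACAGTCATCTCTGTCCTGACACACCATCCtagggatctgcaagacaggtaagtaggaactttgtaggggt
The windows are 69.9% identical over 296 aligned bases. The shared run is 29 bases long, begins 20 bases before the start site in both genes, and is held by these 2 alone of the 32851 promoters searched. TTCNNNGAA, the letters STAT factors are known to bind, which read the same on both strands, occurs once in the *Reg3b* window, 129 bases before the start site, and not in the windows of the other 7 genes, and 8.30% of all promoters of this length hold it.

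The pathway known to induce *Reg3b* and *Reg3g* was followed through 15 genes of interleukin-22, interleukin-17 and STAT3 signalling, a list chosen with earlier results of these data known. Of the 11 genes tested after DSS, 9 were higher and 2 lower in KO mice, and 0 of them passed an unadjusted p under 0.05. Their median log2 fold change was 0.13, against 0.00 over all genes. *Socs3*, the feedback inhibitor that STAT3 induces, stood at 14.3, 26.05 and 27.1 CPM in WT mice 1 to 3 and at 40.6, 90.3 and 24.9 CPM in KO mice 1 to 3 (log2 fold change 1.21, standard error 0.57, unadjusted p = 0.0877 by edgeR). KO mice 1 and 2 were again above every WT mouse and KO mouse 3 between WT mice 1 and 2. *Stat3* itself was at 124 to 145.5 CPM in WT and 146.6 to 179.9 CPM in KO mice, without overlap, at a log2 fold change of 0.25 (unadjusted p = 0.0522 by edgeR). Of all genes tested after DSS, 11.6% did not overlap. *Il17rc*, a subunit of the interleukin-17 receptor and the other most abundant gene of the list, was at 152 to 168 and 145 to 179.8 CPM, and *Il22ra1*, the interleukin-22 receptor subunit of epithelial cells, at 21.8 to 27.3 and 22.5 to 30.2 CPM. The cytokines themselves were hardly seen, with at most 9 reads of *Il22* and 4 of *Il17a* in any mouse after DSS. Without DSS 7 of 11 were higher and 4 lower in KO mice, and *Ahr*, a receptor for dietary and bacterial ligands that supports interleukin-22 producing cells, was the single gene at an unadjusted p under 0.05, at 16.2 to 21.8 CPM in WT and 22.3 to 24.8 CPM in KO mice (log2 fold change 0.29, unadjusted p = 0.0256, adjusted p = 1.00 by edgeR).

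**Figure D4:**
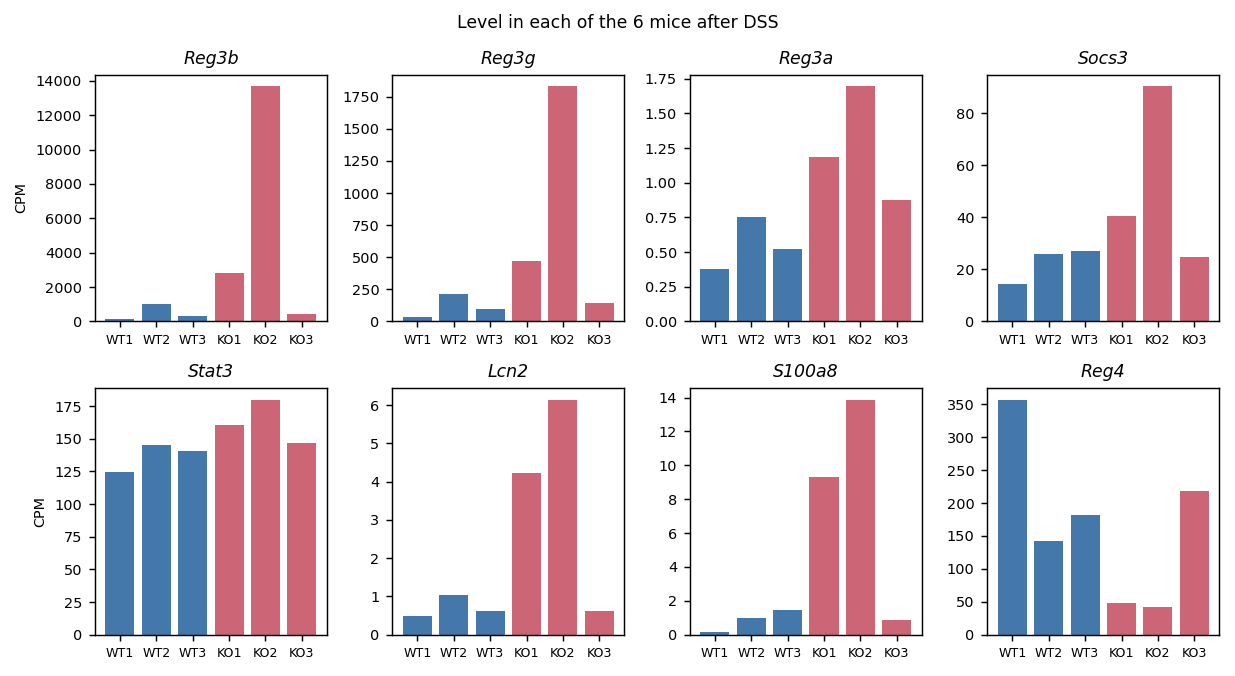
The CPM of 8 genes in each of the 6 mice after DSS, as bars from 0 with a separate axis for each gene, with WT mice in blue and KO mice in red. KO mice 1 and 2 have more *Reg3b*, *Reg3g*, *Socs3*, *Lcn2* and *S100a8* and less *Reg4* than every other mouse, and KO mouse 3 stands within or near the WT range.

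Among 22 further antimicrobial genes, 21 were in the tables, and 11 were tested without DSS and 15 after DSS. Without DSS 8 were higher and 3 lower in KO mice, with a median log2 fold change of 0.04 against 0.00 over all genes. *Pla2g2a*, a phospholipase gene, was at 15.01, 29.5, 12.8 and 16.4 CPM in WT mice and 29.6, 31.9, 33.5 and 37.6 CPM in KO mice, without overlap (log2 fold change 0.85, unadjusted p = 0.00548, adjusted p = 1.00 by edgeR). Whether these mice make a working enzyme from this RNA was not tested. *Pla2g2a* was the single gene of the list at an unadjusted p under 0.05, and 2.03% of all genes did not overlap without DSS. *Ang4*, a secreted ribonuclease with antibacterial activity and the most abundant of the list, was at 2503 ± 1243 CPM in WT and 4346 ± 804 CPM in KO mice (SD, n = 4, unadjusted p = 0.0669 by edgeR). After DSS 11 of the 15 were higher and 4 lower, with a median of 0.28. At an unadjusted p under 0.05, 3 of the 15 were higher and 0 lower, against 3.99% higher and 3.25% lower of all genes. *Reg3a*, another *Reg3* lectin, had only 9, 18 and 11 reads in WT mice and 23, 32 and 21 reads in KO mice (log2 fold change 1.17, unadjusted p = 0.0251 by edgeR). *Lcn2*, which binds bacterial siderophores, was at 0.502, 1.045 and 0.616 CPM in WT mice and 4.22, 6.14 and 0.624 CPM in KO mice (log2 fold change 2.32, unadjusted p = 0.0187 by edgeR), with KO mouse 3 again beside the WT mice. *Sprr2a3*, from a family of near-identical copies whose reads the counting could split, was at 274 to 415 CPM in WT and 458 to 534 CPM in KO mice (log2 fold change 0.56, unadjusted p = 0.00590 by edgeR). The most abundant gene of the list after DSS, the goblet cell lectin *Zg16*, was at 3440.4 ± 926 CPM in WT and 3224 ± 863 CPM in KO mice (SD, n = 3). In either experiment 0 of the list passed an adjusted p under 0.05 by edgeR.

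*Reg4* (ENSMUSG00000027876, chr3:98222156-98236748, forward strand of GRCm38) was the gene with the smallest p of the 8 without DSS. Its level was 1116, 2225, 1389.6 and 1859.5 CPM in WT mice 1 to 4 and 2692, 3569, 1919 and 2139 CPM in KO mice 1 to 4. KO mice 1 and 2 were above every WT mouse, and KO mice 3 and 4 were below WT mouse 2. On the log2 scale KO mice were higher by 0.65 (standard error 0.25, 95% interval 0.09 to 1.2025, unadjusted p = 0.0268, adjusted p = 1.00 by edgeR), and the exact permutation test gave p = 0.114, where 4 mice against 4 can reach 0.0286. The unadjusted p was not under 0.05 without KO mouse 1, KO mouse 2, WT mouse 1 or WT mouse 3, at differences of 0.46 to 0.83 over all mice left out. After DSS *Reg4* stood at 357, 142 and 182 CPM in WT mice 1 to 3 and at 47.9, 41.5 and 219 CPM in KO mice 1 to 3. After DSS KO mice 1 and 2, which had the most *Reg3b* and *Reg3g*, had the least *Reg4*, and KO mouse 3 was within the WT range. For *Reg4* after DSS the log2 fold change was -1.14 (standard error 0.84, 95% interval -3.34 to 1.0535, adjusted p = 0.760 by edgeR). It was -2.35 without KO mouse 3 (unadjusted p = 0.00694) and -0.77 without KO mouse 2 (unadjusted p = 0.441), both by edgeR. In the model over 14 mice the log2 fold change of *Reg4* after DSS minus that without DSS was -1.78 (95% interval -3.50 to -0.06, unadjusted p = 0.0433, adjusted p = 0.985 by edgeR), with an unadjusted p of 9.94e-05 to 0.133 when mice were left out in turn. Over the 28 pairs of genes, the r of *Reg3g* and *Reg4* was -0.72 over 14 mice (exact permutation p = 0.0366, adjusted p = 0.256) with a rho of -0.67 (p = 0.0492, adjusted p = 0.344), and r was -0.66 without the 2 mice farthest from the median of *Reg3g*. Within the experiments this r was -0.29 without DSS and -0.90 after DSS. For *Reg3b* and *Reg4* r was -0.58 over 14 mice (exact permutation p = 0.0926, adjusted p = 0.370), -0.11 without DSS and -0.92 after DSS.

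Markers of the cells that hold *Reg4* were read beside it. Of 9 markers of goblet and deep crypt secretory cells, 6 were higher and 3 lower in KO mice without DSS, and their summed level was 24578 to 57359 CPM in WT and 48505 to 65219 CPM in KO mice. *Clca1*, the most abundant of them, was at 10056 to 27913 CPM in WT and 25487 to 35167 CPM in KO mice (log2 fold change 0.64, unadjusted p = 0.0424 by edgeR), the single marker at an unadjusted p under 0.05. After DSS 9 of 9 were lower in KO mice, with a median log2 fold change of -0.20 against 0.00 over all genes, and summed levels of 25257 to 36347 CPM in WT and 15544 to 32737 CPM in KO mice. *Kit*, a receptor of the deep crypt secretory cells, was at 52.9, 45.5 and 47.4 CPM in WT mice and 37.4, 31.4 and 44.3 CPM in KO mice (log2 fold change -0.37, unadjusted p = 0.0241 by edgeR). Of 7 markers of the crypt base and cycling cells 7 were lower in KO mice after DSS, with a median log2 fold change of -1.09 against 0.00 over all genes. Their summed level differed less, at 295 to 335 CPM in WT and 209 to 293 CPM in KO mice. *Ascl2*, the transcription factor of crypt stem cells, had 133, 57 and 97 reads in WT mice and 3, 2 and 47 reads in KO mice (log2 fold change -2.42, unadjusted p = 0.0403 by edgeR). Without DSS *Smoc2*, another gene of the crypt base, was at 36.4 to 43.3 CPM in WT and 26.7 to 34.4 CPM in KO mice (log2 fold change -0.29, unadjusted p = 0.0193 by edgeR). None of these passed an adjusted p under 0.05, and their part in the *Reg4* levels was not tested.

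*Lypd8* (ENSMUSG00000013643, chr11:58379043-58390728, forward strand) had the highest mean level of the 8 genes per kb of gene length in all 4 groups. Without DSS it stood at 2900.2, 4089, 3095 and 4469 CPM in WT mice 1 to 4 and at 2551, 3776, 3416 and 4132 CPM in KO mice 1 to 4. After DSS it stood at 6957, 9655 and 10946 CPM in WT mice 1 to 3 and at 8587, 8644 and 9068 CPM in KO mice 1 to 3. The genotypes lay over each other in both experiments, and the KO mice after DSS were within 1.06 times of each other. The genotypes differed in *Lypd8* by a log2 fold change of -0.07 without DSS (95% interval -0.49 to 0.36) and -0.07 after DSS (-0.55 to 0.41), intervals that span 0.710 to 1.28 times and 0.685 to 1.33 times the WT level. The difference between the 2 experiments was 0.01 (-0.63 to 0.65, adjusted p = 1.00 by edgeR). Of 8 markers of surface colonocytes, the cells that carry *Lypd8*, 4 were higher and 4 lower in KO mice without DSS and 5 higher and 3 lower after DSS. *Guca2a*, which encodes guanylin, was at 783 ± 102 CPM in WT and 585 ± 49.98 CPM in KO mice without DSS (SD, n = 4, log2 fold change -0.42, unadjusted p = 0.00590 by edgeR), and *Muc3*, a membrane mucin, at 2711 and 2012 CPM after DSS (log2 fold change -0.43, unadjusted p = 0.0404 by edgeR).

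*Wfdc2* (ENSMUSG00000017723, chr2:164562413-164568510, forward strand) and *Slpi* (ENSMUSG00000017002, chr2:164354070-164389095, reverse strand) lie 173 kb apart and belong to the same inhibitor family, yet they differed in how much they varied. *Wfdc2* stood at 135, 114, 72.5 and 116 CPM in WT mice and 138, 82.4, 104 and 135 CPM in KO mice without DSS, and at 217, 179 and 214 CPM in WT and 220.1, 218 and 197 CPM in KO mice after DSS. For *Wfdc2* the log2 fold change was 0.07 without DSS (95% interval -0.41 to 0.55) and 0.06 after DSS (-0.19 to 0.31), the latter between 0.877 and 1.24 times the WT level, and it was -0.07 after DSS when counts were scaled by library totals alone. *Slpi* stood at 3.19, 1.55, 0.609 and 19.9 CPM in WT mice 1 to 4 without DSS and at 49.3, 4.56, 3.74 and 50.03 CPM in KO mice 1 to 4. A pair of KO mice, 1 and 4, was above every WT mouse, and the other pair was among the WT mice. Its log2 fold change without DSS was 2.09 (standard error 1.30, 95% interval -0.99 to 5.17, adjusted p = 1.00 by edgeR), and with a mouse left out it ranged from 1.60 without KO mouse 4 (unadjusted p = 0.313) to 3.90 without WT mouse 4 (unadjusted p = 0.0245, both by edgeR). After DSS *Slpi* stood at 5.22, 39.2 and 7.96 CPM in WT mice 1 to 3 and 31.3, 62.9 and 23.0 CPM in KO mice 1 to 3. The genotypes overlapped, with a difference of 1.16 on the log2 scale (standard error 0.93, adjusted p = 0.785 by edgeR) that ranged from 0.63 without KO mouse 2 (unadjusted p = 0.589) to 2.56 without WT mouse 2 (unadjusted p = 0.00597, both by edgeR). *Slpi* overlaps 1 other gene, *Mir7678*, whose reads cannot be told apart from its own if the counting did not use strand.

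Both lysozymes were low. *Lyz1* (ENSMUSG00000069515, chr10:117287797-117292868) and *Lyz2* (ENSMUSG00000069516, chr10:117277331-117282321) lie 5.48 kb apart on the reverse strand, their coding sequences are 95.1% identical. Further, 16.1% of the stretches of 50 bases in the longest *Lyz1* transcript also occur in *Lyz2*, so that their counts are uncertain where the counting could split reads between them. *Lyz1* had 32, 9, 33 and 10 reads in WT mice and 34, 20, 36 and 42 reads in KO mice without DSS (log2 fold change 0.90, standard error 0.46, unadjusted p = 0.0793 by edgeR). After DSS it had 4, 7 and 25 reads in WT and 4, 10 and 5 reads in KO mice, too few for edgeR's filter, and the exact permutation test gave p = 0.7. Without the filter edgeR gave it a log2 fold change of -0.79 (unadjusted p = 0.254). *Lyz2* stood at 11.2, 2.68, 5.87 and 2.89 CPM in WT mice and 7.09, 0.851, 1.90 and 9.66 CPM in KO mice without DSS (log2 fold change -0.22, standard error 0.77), and at 6.77, 9.53 and 15.03 CPM in WT and 12.4, 21.7 and 7.57 CPM in KO mice after DSS (log2 fold change 0.41, standard error 0.45, adjusted p = 0.840 by edgeR). The deviations of both lysozymes had an r of 0.73 over 14 mice (exact permutation p = 0.000530, adjusted p = 0.00743) and a rho of 0.70 (p = 0.00125, adjusted p = 0.0176), and r was 0.80 without the 2 mice farthest from the median of *Lyz1*. With *Reg3b* and *Reg3g*, this was the other of the 2 pairs, of 28, at an adjusted p under 0.05. How far reads that fit both lysozymes enter their r was not tested.

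Markers of the cells known for lysozyme were read beside it. Of 10 Paneth cell markers, *Defa26* had at most 2 reads and *Defa17* at most 6 reads in any mouse, *Ang5* had 0 reads in all 14 mice, and *Defa24* reached 39 reads without DSS. The summed level of the Paneth list was 88.2 to 1179 CPM in WT and 301 to 1386 CPM in KO mice without DSS, led by the lectin *Itln1*, and 23.2 to 66.4 and 15.1 to 57.8 CPM after DSS. Without DSS 4 of the 4 Paneth genes tested were higher in KO mice, and after DSS 3 of the 3 tested were lower. *Mmp7*, the protease that activates defensins in Paneth cells, was at 4.73, 1.55, 6.32 and 2.45 CPM in WT and 5.06, 8.998, 8.87 and 12.2 CPM in KO mice without DSS (log2 fold change 1.22, unadjusted p = 0.0170 by edgeR). Of 11 macrophage markers, 5 were higher and 3 lower of the 8 tested without DSS and 8 higher and 2 lower of the 10 tested after DSS, 0 of them at an unadjusted p under 0.05. Their summed level after DSS was 80.5 to 92.1 CPM in WT and 93.6 to 120 CPM in KO mice, most of it *Cd14*. Neutrophil markers, of cells that also enter injured colon, were read as well. After DSS 4 of the 4 tested were higher in KO mice, with a median log2 fold change of 2.06, and *S100a8*, which neutrophils carry in bulk, was at 0.167, 1.00 and 1.47 CPM in WT and 9.31, 13.9 and 0.873 CPM in KO mice (log2 fold change 3.19, unadjusted p = 0.0392 by edgeR). The summed neutrophil list was at 45.4 to 97.8 CPM in WT and 90.6 to 239 CPM in KO mice, most of it *Ly6g*, while *Mpo* had 0 reads in all 6 mice. The part of these cells in the levels of the 8 genes was not tested.

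The 8 genes differed in how much they varied between mice. The SD of log2 CPM between mice of the same group was 0.23 for the median gene without DSS and 0.21 after DSS. For *Reg3b* it was 1.85 and 1.96, larger than for 99.9% of all genes tested in either experiment. It was for *Slpi* 2.04 and 1.198 (99.9% and 99.0%), for *Reg3g* 1.02 and 1.62 (97.2% and 99.7%) and for *Lyz2* 1.29 and 0.67 (99.1% and 92.1%). For *Reg4* it was 0.42 and 1.06 (76.3% and 98.4%), and for *Lyz1* 0.72 without DSS (92.3%). The SD of *Lypd8* was 0.30 and 0.24 (62.9% and 57.1%) and that of *Wfdc2* 0.37 and 0.13 (71.2% and 24.6%), above that of the median gene except for *Wfdc2* after DSS.

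**Figure D5:**
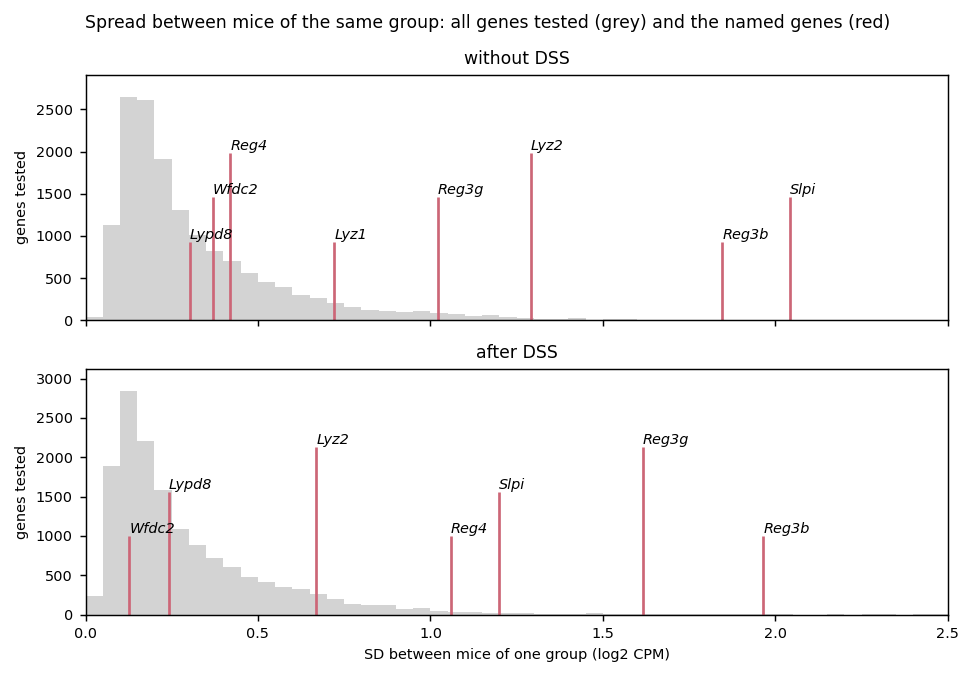
The number of tested genes (grey bars) by the SD of log2 CPM between mice of the same group, without DSS (top) and after DSS (bottom), with a red line at the SD of each of the named genes, whose heights carry no value. *Wfdc2* and *Lypd8* lie within the bulk of genes, while *Reg3b*, *Reg3g* and *Slpi* lie in the far tail in both experiments.

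The order of the 8 genes by mean level per kb of gene length (RPKM) is a description. In WT mice without DSS it ran from *Lypd8* (2833 ± 592 RPKM, SD, n = 4) and *Reg4* (1614 ± 483) over *Wfdc2* (95.8 ± 23.0), *Reg3b* (32.3 ± 32.2), *Reg3g* (6.51 ± 3.33), *Slpi* (5.34 ± 7.71) and *Lyz2* (4.29 ± 3.00) to *Lyz1* (0.926 ± 0.571). The mice of *Lypd8* and *Reg4*, of *Reg4* and *Wfdc2*, and of *Lyz2* and *Lyz1* did not overlap, while the other neighbours did. In KO mice without DSS *Lypd8* (2702 ± 528 RPKM) and *Reg4* (2526 ± 720.4) overlapped. In WT mice after DSS *Lypd8* (7154 ± 1585 RPKM, SD, n = 3) was followed by *Reg3b* (434 ± 385), *Reg4* (222 ± 112) and *Wfdc2* (178 ± 18.7), which overlapped. In KO mice after DSS *Reg3b* (4952 ± 6172 RPKM) came next to *Lypd8* (6827 ± 205) and overlapped with it, *Reg3g* (385 ± 423) followed, and *Reg4* (101 ± 98.6) stood below *Wfdc2* (186 ± 11.1). The places within a group come from the same libraries, whereas levels set across the 2 experiments come from tables made separately, and DSS, table and sequencing run cannot be told apart. *Muc2*, for instance, was at 94.0 CPM in WT mice in the table without DSS and at 7251 CPM in the table after DSS.

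The genes whose deviations over the 14 mice were most like those of each of the 7 genes tested in both tables were taken from 8678 genes with a mean of at least 10 CPM in each experiment, and the r values are descriptions chosen as the highest of many. For *Reg3b* they were *Arhgef16* (r 0.91), *Ydjc* (0.87) and *Hnrnpl* (0.84), and for *Reg3g* *Daglb* (0.89), *Uap1l1* (0.87) and *Arhgef16* (0.86). *Arhgef16* was thus near both, and moved far less than they did, between 135 and 171 CPM without DSS and between 153 and 196 CPM after DSS. For *Reg4* they were *Lzts2* (0.92), *Ano1* (0.88) and *Dgcr2* (0.86), and for *Lypd8* *Clcn2* (0.96), a chloride channel of colonocytes, *Slc35f6* (0.95) and *Trim6* (0.94). *Slpi* was nearest to *Pip4p2* (0.92), *Bloc1s6* (0.85) and *Slc40a1* (0.83), *Wfdc2* to *Ppp1ccb* (0.84), *Nudt16* (0.83) and *Rpl38* (0.81), and *Lyz2* to *Zfp639* (0.93), *Cmbl* (0.87) and *mt-Tp* (0.86). Genes of the same mouse share its library and depth in these values, and r within an experiment differed, as for *Nudt16* with *Wfdc2* (0.90 without DSS and -0.48 after DSS).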

How the data were processed

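Total RNA of colon was extracted with TRIzol, and libraries were made with a directional kit. Per the labels the submitters' notes name HISAT2 and DESeq2. The versions, the counting tool, the genome build and the use of strand are not given in the sources used here. The authors deposited a table for each experiment with unscaled counts for 14 mice in all, together with FPKM values and columns of their own comparison (p values and fold changes), which were not used. Gene identifiers were matched to GENCODE vM21 on GRCm38 (55144 of 55889 without DSS and 54409 of 54721 after DSS, of which 99.5% and 98.3% have the same start and end). Assembled models without such an identifier held 0.250% and 0.133% of reads and stayed in the fits.

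Testing used edgeR 4.0.16 under R 4.3.3 (filterByExpr at min.count 10 and min.total.count 15, TMM scaling, robust glmQLFit and glmQLFTest), with Benjamini-Hochberg adjustment over all genes tested, within each table. The genotype by experiment term was tested over all 14 mice on the 54189 identifiers in both tables. CPM values use TMM-scaled library sizes, RPKM values are CPM per kb of the table's gene length, and log2 CPM used a prior count of 2. Exact permutation tests were two-sided and cannot go below 0.0286 with 4 mice against 4 or 0.100 with 3 against 3. For pairs of genes, mice were permuted within groups (20736 arrangements). Intervals of shares are 95% Wilson intervals. The samples were grouped by the genotype and treatment in the labels. The labels give replicate numbers without DSS, where mice are different animals. The tests were tried on simulated counts with 200 genes changed 2-fold, of which 65.5% were recovered without DSS (15441 genes), 62.0% after DSS (14908 genes) and 38.0% for the genotype by experiment term (16196 genes), with 0 in the wrong direction. Of the unchanged genes 3, 17 and 7 were called. The changed genes were drawn at random from expressed genes, so the rates do not describe genes as variable as *Reg3b*, *Reg3g* and *Slpi*.

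The members and lists were chosen with earlier results of these data known. Named are all 8 members, of each list the genes at an unadjusted p under 0.05 in either experiment and its 2 most abundant genes where a result turns on them, and for each member tested in both tables the 3 other genes with the highest r. Further genes named (such as *Socs3*, *Stat3*, *Il22ra1* and the genes at or near 0 reads) were chosen after their values were seen. Alternatives were DESeq2 1.42.0, RLE size factors, library totals without TMM, no filter, at least 10 counts in every mouse, all 14 mice in one model, a replicate block, each mouse left out in turn, and a prior count of 0.5. A fit without mitochondrial genes was added after seeing the data. Promoter and miRNA sequences are RefSeq's on GRCm38.p6, with a promoter for each of the 8 genes (10 windows), and alignments were made with Biopython.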

Additional observations from a re-analysis of the deposited data

Results flagged for a closer look

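*Slpi* in WT mice without DSS had 1 mouse far from the others, WT mouse 4 at 19.9 CPM, while the other 3 were between 0.609 and 3.19 CPM. This was the single such case among 16 groups of 4 mice examined. Chance flags about 1 in 20 such groups, so a single case among 16 is not unusual. The genotype difference in log2 fold change was not the same in both experiments at an unadjusted p under 0.05 by edgeR for *Reg3b* (by 3.89 on the log2 scale), *Reg3g* (by 2.99) and *Reg4* (by -1.78), at an adjusted p of 0.985 for each. After DSS KO mice 1 and 2 had the most *Reg3b* and *Reg3g*, the least *Reg4* and the highest share of mitochondrial reads (14.8% and 20.2%) of the 6 mice. With mitochondrial genes left out the log2 fold change after DSS was 3.52 for *Reg3b*, 2.83 for *Reg3g* and -1.14 for *Reg4*. That fit cannot show whether the mitochondrial share and these levels are linked, which was not tested.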

How the results depend on the processing

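With 3 or 4 mice a group and spreads of 1 to 2 on the log2 scale for *Reg3b*, *Reg3g* and *Slpi*, neither small nor large differences passed. *Reg3b* after DSS, at 11.4 times the WT level, had an adjusted p of 0.670 by edgeR. Counts were low for *Lyz1* in every mouse and for *Slpi*, *Lyz2* and *Reg3b* in single mice (as few as 11, 14 and 24 reads). No gene of the 8 passed an adjusted p under 0.05 under any alternative. None passed the exact permutation test at 0.05 with a prior count of 0.5 or library totals. After DSS none could, since 3 mice against 3 cannot give a p below 0.1 in that test. An unadjusted p under 0.05 gave 1 of the 8 without DSS (*Reg4*, 0.65), 0 after DSS and 3 for genotype by experiment. All genes called numbered 3 without DSS and 2 after DSS; DESeq2 gave 27 and 66, no filter 11 and 46, at least 10 counts in every mouse 0 and 0, an unadjusted p 566 and 1080, and leaving out a mouse 3 to 5 and 0 to 93 (93 without KO mouse 3). Library totals without TMM moved the median of all genes after DSS from 0.00 to -0.13, and the genes higher in KO mice from 595 of 1080 to 293 of 1263 at an unadjusted p. Under it *Wfdc2* after DSS was -0.0721, above that median. Of the log2 fold changes of single genes 216 kept direction and side of the threshold and 16 changed sign, none of them past it. Leaving out a mouse gave, without DSS, -0.67 to 0.60 for *Reg3b*, -0.54 to 0.18 for *Reg3g*, -0.16 to 0.0524 for *Lypd8*, -0.0762 to 0.21 for *Wfdc2* and -0.79 to 0.36 for *Lyz2*, and after DSS -0.23 to 0.0791 for *Lypd8*, -0.0303 to 0.11 for *Wfdc2* and -0.0660 to 0.76 for *Lyz2*. The cause was not tested. The model over 14 mice gave *Reg4* without DSS an unadjusted p of 0.233, and *Reg3b* and *Reg3g* after DSS 0.0294 and 0.0161, by edgeR. With the replicate block without DSS 0 of the 8 were called, and *Reg4*, *Slpi* and *Lyz1* had unadjusted p values of 0.00941, 0.00399 and 0.0463 by edgeR. Of all 15441 genes tested with this block, 543 had an unadjusted p under 0.05 by edgeR. Same-numbered mice correlated at -0.27 to 0.16 and differently numbered mice at -0.23 to 0.27. These values cannot show whether same-numbered mice share a litter or a batch, which was not tested. No paired analysis was possible after DSS because the columns carry other numbers than the labels.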

Other observations

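Cells other than the epithelium were read through lists that the report does not use. After DSS 7 of the 7 T cell markers tested were higher in KO mice, with a median log2 fold change of 0.56 and 0 of them at an unadjusted p under 0.05 by edgeR, and *Cd8a*, the coreceptor of cytotoxic T cells, was at 15.6 ± 4.73 CPM in WT and 30.8 ± 15.4 CPM in KO mice (SD, n = 3). Of 5 markers of B and plasma cells tested after DSS 2 were higher and 3 lower in KO mice. Among them the plasma cell genes *Igha* and *Jchain* had log2 fold changes of 0.25 and 0.46, and *Ighm*, the heavy chain of IgM, was at 2.84 to 9.38 CPM in WT and 1.08 to 1.49 CPM in KO mice (log2 fold change -1.99, unadjusted p = 0.00209 by edgeR). Without DSS *Igha*, the heavy chain of the IgA that gut plasma cells secrete, was at 9.12 to 13.1 CPM in WT and 8.75 to 77.8 CPM in KO mice (log2 fold change 1.65, unadjusted p = 0.0338 by edgeR). Of 6 stromal markers tested after DSS 4 were higher and 2 lower, with a median log2 fold change of 0.20. *Col1a1* was at -0.07 and *Pecam1* at -0.47, and *Col3a1*, a fibrillar collagen and the single one at an unadjusted p under 0.05, was at 4.97 to 6.83 CPM in WT and 7.57 to 17.1 CPM in KO mice (log2 fold change 1.24, unadjusted p = 0.00365 by edgeR). None of these passed an adjusted p under 0.05.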
